A study of Mus musculus with 12 samples.

Results

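Bone morphogenetic protein (BMP) signaling was followed through 10 genes: the ligands Bmp2, Bmp4 and Bmp7, the secreted antagonists Grem1 and Nog, the pseudo-receptor Bambi, the inhibitory Smad6, and the target genes Id1, Id2 and Id3. Every spot that was not a control and whose gene symbol in the scanner files was one of these names was taken, which gave 14 of the 41174 probes of the array. Of these 14 probes, 7 probes of 5 genes (Bmp4, Smad6, Id1, Id2 and Id3) were detected, among 22751 detected probes in all. Detected means that the scanner software flagged the probe as well above background on each of the 3 arrays of some group.

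The cells were C57MG, an established mouse line of mammary epithelial origin, grown with serum and insulin and then moved to DMEM without supplements for the treatment. The groups compared after 24 h were cells given only the carrier protein bovine serum albumin (BSA), cells given 100 ng/ml recombinant human Rspo2, cells given 100 ng/ml recombinant mouse Wnt3a, and cells given both proteins at these doses. Each group had 3 monolayers of this 1 line, each on its own single-color array, so the p-values measure the spread between monolayers. Signals are given as log2 of the background-corrected intensity over the 75th percentile of the same array, a percentile that lay between 774 and 1146 intensity units, and 51.3 to 64.2% of probes per array were well above background. Differences are on the same log2 scale, with the standard error (SE) and the adjusted p of limma, a linear model with shared variance estimates, corrected by Benjamini-Hochberg over all 22751 detected probes. The 12 arrays came from 3 slides of 4. BSA 1 to 3 shared slide 1 with the first Rspo2 replicate, the other 2 Rspo2 replicates shared slide 2 with Wnt3a 1 and 2, and Wnt3a 3 shared slide 3 with all arrays of the combination. The spread within the BSA group and within the combination therefore holds no variation between slides, while the difference between these groups does.

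The epithelial label was checked against marker genes. Of 7 luminal epithelial markers 2 were detected (Krt8 and Cldn3), while Epcam, Cdh1, Krt18, Krt19 and Cldn7 were not, and Cdh1 and Cldn7 were above background on 0 arrays. Of 7 basal or myoepithelial markers 5 were detected, with Krt14, Krt17, Trp63 and Acta2 on all 12 arrays, and of 7 fibroblast or mesenchymal markers 6 were detected, and the exception, Thy1, was above background on 0 arrays. The leukocyte gene Ptprc and the endothelial gene Pecam1 were each above background on 1 array, whereas Cd68, Cd3e and Cdh5 were detected. Krt14, Krt8, Pdgfra and Cd3e differed from BSA by up to 1.24, 1.15, 1.37 and 1.01 on the log2 scale in some treatment. Krt8 and Cd3e were dim, with log2 signals of -4.83 to -3.41 and -5.39 to -3.52. The part of such shifts in the results below was not tested.

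BMPs are secreted ligands of the TGF-beta superfamily that bind paired type I and type II serine/threonine kinase receptors, which phosphorylate Smad1, Smad5 and Smad9. Noggin and gremlin bind the ligands outside the cell, Bambi is a receptor-like protein without a kinase domain, and Smad6 blocks the pathway inside the cell and is itself one of its targets. The Id genes are classic targets of the pathway, and their products pair with basic helix-loop-helix E proteins and keep them from binding DNA. In the embryonic mammary gland BMP and Wnt signaling both take part in the formation of the bud.

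The sequences just upstream of Id2, Bmp4 and Smad6 are shown because the probes of these genes carry most of the differences described below. They are the 250 bases before the transcript start in RefSeq (GRCm38.p6), written 5′ to 3′ on the strand of the gene, and capitals mark the word GGCGCC, which occurs in BMP-responsive elements of Id genes. Of the 10 genes 5 had an entry in the promoter table used.
Id2 (chr12:25096093-25096342, minus strand): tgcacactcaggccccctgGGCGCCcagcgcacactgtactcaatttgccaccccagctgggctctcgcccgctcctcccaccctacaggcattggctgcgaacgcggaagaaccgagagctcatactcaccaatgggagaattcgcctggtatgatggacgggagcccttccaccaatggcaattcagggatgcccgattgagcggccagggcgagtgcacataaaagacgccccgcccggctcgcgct
Bmp4 (chr14:46390670-46390919, minus strand): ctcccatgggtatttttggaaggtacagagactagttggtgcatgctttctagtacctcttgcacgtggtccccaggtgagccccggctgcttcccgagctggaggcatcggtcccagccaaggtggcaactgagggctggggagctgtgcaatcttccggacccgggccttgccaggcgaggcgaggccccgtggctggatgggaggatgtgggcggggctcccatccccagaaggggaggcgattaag
Smad6 (chr9:64022060-64022309, minus strand): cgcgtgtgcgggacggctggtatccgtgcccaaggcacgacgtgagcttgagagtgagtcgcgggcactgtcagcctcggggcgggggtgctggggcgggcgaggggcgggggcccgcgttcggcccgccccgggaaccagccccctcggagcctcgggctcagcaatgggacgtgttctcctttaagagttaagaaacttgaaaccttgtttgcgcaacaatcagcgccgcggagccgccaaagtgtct
GGCGCC, which reads the same on both strands, was present in the Id2 window, where it began 231 bases before the start, and in 9.59% of the 32851 windows of the table. For TCF/LEF factors the word CTTTGAA was searched on both strands, as were its relatives with other last letters, namely CTTTGAT, the word CTTTGTA and finally CTTTGTT. They had 0 matches in the 3 windows, and 14.8% of all windows held at least 1. A match is a description of letters, and its absence concerns this window alone.

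The remaining ligands and the antagonists were not measurable at this signal. Bmp2, a BMP ligand with a probe printed as 10 spots per array, was well above background on 8 of 120 spots, and Bmp7, another ligand, on 5 of 120 spots with its replicated probe A_51_P492366 and on 0 of 12 with A_52_P278354. Grem1 and Nog, which encode gremlin and noggin, were well above background on 0 of 12 spots each. Bambi was well above background on 4 of 120 spots with A_51_P248819 and on 0 of 12 with A_52_P634995. The intensities of these 7 probes were 3.26 to 20.7 units on all arrays, and the lowest signal of any probe well above background on an array was 15.4 to 43.8 units, so for all of them every group was at background and no fold was computed. These transcripts were not detectable in any of the 4 groups, so no order of the groups can be given for them.

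Against BSA the detected members shifted by less than 2-fold with every treatment. With Rspo2 alone 3 of the 7 probes passed an adjusted p of 0.05, all higher (Bmp4 and both Id2 probes), where 16.8% of all detected probes passed and 10.9% passed in that direction. With Wnt3a alone the count was again 3 of 7, all higher and on the same 3 probes, where 31.5% of all probes passed and 18.3% passed as higher. With both proteins 3 of 7 passed, with Bmp4 and 1 Id1 probe higher and Smad6 lower, where 39.2% of all probes passed, 21.9% as higher and 17.3% as lower. No member probe was called in these comparisons at an adjusted p under 0.05 and at least 2-fold, where the study's own threshold was 2-fold with an unadjusted p, and this call was met by 0.721%, 2.52% and 5.08% of all probes with Rspo2, Wnt3a and both. By unadjusted p under 0.05 in limma 4, 5 and 4 of the 7 passed, and the share of all probes at that p was not computed. By adjusted p, the share of members that passed with Wnt3a and with both proteins lay near that of all probes.

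The combination differed from Wnt3a alone for 3 of the 7 probes (both Id2 probes and Smad6, all lower), where 4.27% of all probes passed and 2.49% passed as lower, and 0 members against 0.747% of all probes were also 2-fold changed. The interaction, which is the difference with both proteins less the differences with Rspo2 and with Wnt3a, was below 0 for all 7 probes and passed for the same 3, where 8.9% of all probes passed and 5.31% passed as negative. The Id2 probes were the 2 called at 2-fold, which 1.93% of all probes were, 0.651% as negative. The median interaction of the 7 probes was -0.58, and that of all probes was -0.00312. Comparisons that share the BSA arrays are not independent of each other, and the interaction uses all 12 arrays.

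**Figure D1:**
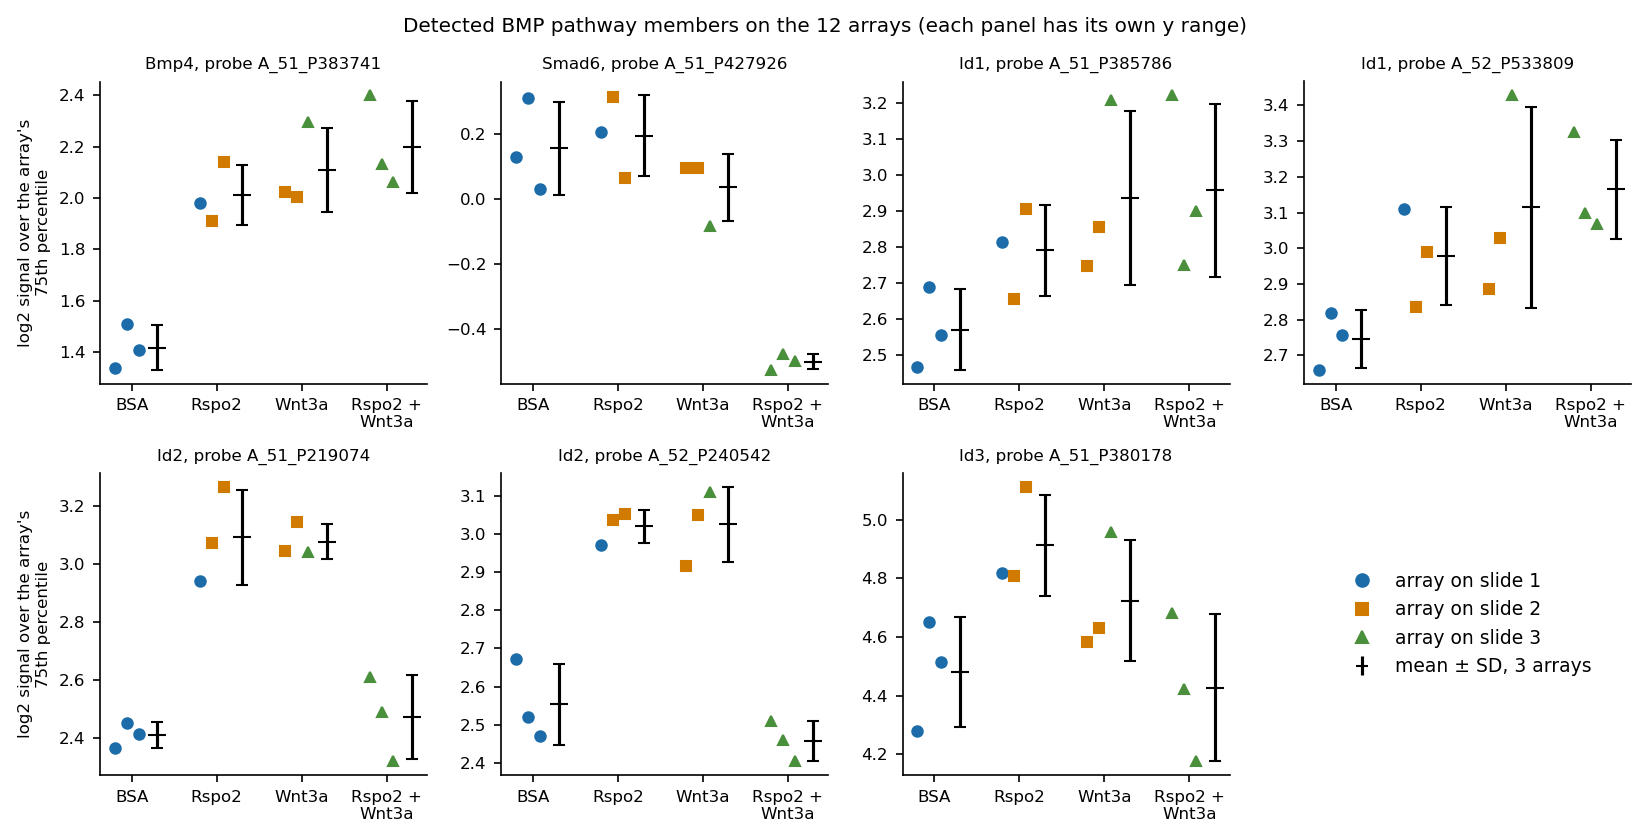
Log2 signal over the 75th percentile of the array (y axis) of the 7 detected probes in the 4 treatment groups (x axis). Each colored symbol is 1 array, with color and shape giving the slide, and the black bar is the mean ± SD of 3 arrays. Both Id2 probes were high with either protein alone and near the BSA level with both, Bmp4 was above BSA with every treatment, and Smad6 was low with both proteins.

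Bmp4, the ligand that was expressed, was higher than with BSA in all 3 treated groups. The BSA arrays read 1.34, 1.51 and 1.41, the Rspo2 arrays 1.98, 1.91 and 2.14, the Wnt3a arrays 2.02, 2.0 and 2.30, and the arrays with both proteins 2.40, 2.13 and 2.06. Every treated array was above every BSA array, as it was for 43.5%, 45.5% and 54% of all probes in either direction in the comparisons of Rspo2, Wnt3a and both with BSA. The difference from BSA was 0.59 (SE 0.11, limma adjusted p = 0.0150, 1.51-fold) with Rspo2, 0.69 (adjusted p = 0.00214, 1.61-fold) with Wnt3a. With the combination it was 0.78 (adjusted p = 0.000522, 1.72-fold). BSA shared no slide with Wnt3a or the combination, and with slide as a term none of these differences passed (limma adjusted p = 0.180, 0.277 and 0.446).

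The 3 treated groups of Bmp4 overlapped each other. Both proteins differed from Wnt3a alone by 0.09, with a 95% interval of -0.16 to 0.34 and a limma adjusted p of 0.731. The interaction was -0.50 (SE 0.16), with an adjusted p of 0.0754, and it passed without replicate 1 of both proteins (-0.60, adjusted p = 0.0391). The Rspo2 difference no longer passed without BSA replicate 1 (0.55, adjusted p = 0.0558) or without Rspo2 replicate 3 (0.53, adjusted p = 0.0605). With the normexp background correction it was 0.46 (adjusted p = 0.634), and the Wnt3a difference was 0.75 (adjusted p = 0.113). The Bmp4 probe was printed as 10 spots per array, all 120 spots were well above background, and the SD of log2 intensity among the spots of an array was 0.03 to 0.07. Before scaling, the BSA arrays read 2403 to 3262 units, the Rspo2 arrays 3306 to 4029, the Wnt3a arrays 3100 to 3955 and the arrays with both 4199 to 4971, so the Wnt3a group overlapped BSA in raw units only.

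Smad6, the intracellular inhibitor, was lower with the combination than with BSA. Its signals were 0.13, 0.31 and 0.03 with BSA, 0.21, 0.32 and 0.07 with Rspo2, 0.10, 0.10 and -0.08 with Wnt3a, and -0.53, -0.48 and -0.50 with both proteins. The 3 arrays with both proteins lay below the other 9, whereas BSA, Rspo2 and Wnt3a overlapped. The share of all probes with this pattern was not computed, and 54% did not overlap between BSA and both proteins in either direction. The difference from BSA was -0.66 (SE 0.10, limma adjusted p = 0.000495) with both proteins, a change of -36.6%, against 0.04 (adjusted p = 0.806) with Rspo2 and -0.12 (adjusted p = 0.365) with Wnt3a. BSA and the combination shared no slide, and with slide as a term their difference was -0.46 (limma adjusted p = 0.370).

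Smad6 was also lower with the combination than with Wnt3a alone, by -0.54 (SE 0.10, limma adjusted p = 0.00951). The 2 groups did not overlap, as was the case for 21.4% of all probes in that comparison. Its interaction was -0.58 (SE 0.14, adjusted p = 0.0309). That adjusted p was 0.0566 to 0.0763 when BSA replicate 1 or 3, Rspo2 replicate 2, Wnt3a replicate 1 or 2, or replicate 2 or 3 of both proteins was left out, with values from -0.59 to -0.51. It also missed the threshold with the percentile taken over probes detected on every array (0.0556) and without the filter on dim probes (0.118). In raw units the arrays with both proteins read 654 to 749, the BSA arrays 1040 to 1425, the Rspo2 arrays 830 to 1179 and the Wnt3a arrays 761 to 961. The arrays with both were thus lowest before scaling too, but there the Wnt3a arrays also lay wholly below BSA. With the normexp background correction the difference from Wnt3a was -0.47 (adjusted p = 0.291).

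**Figure D2:**
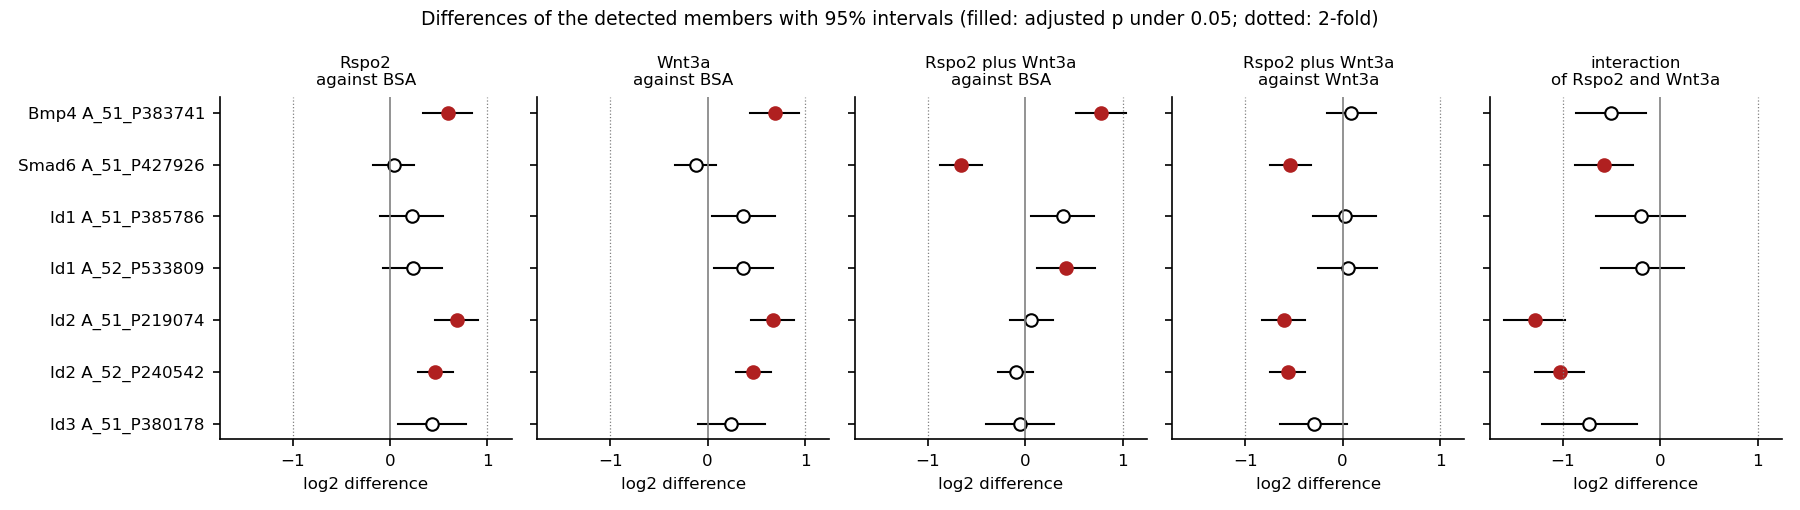
Difference in log2 signal (x axis) of each detected probe (y axis) in the 4 pairwise comparisons and the interaction, with 95% intervals from limma as lines. Filled symbols passed an adjusted p of 0.05 and dotted lines mark 2-fold; Id2 was the gene whose probes passed as higher with each protein alone and as lower in the comparison of both with Wnt3a.

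Id2, which encodes an inhibitor of E proteins, was higher with each protein alone than with BSA, and with the combination its difference from BSA did not pass. With probe A_51_P219074 the signals were 2.36, 2.45 and 2.41 with BSA, 2.94, 3.07 and 3.27 with Rspo2, 3.05, 3.15 and 3.04 with Wnt3a, and 2.61, 2.49 and 2.32 with both. All 6 arrays with a single protein lay above all 6 arrays with BSA or with both proteins. The share of all probes with this pattern was not computed. In either direction, 43.5% and 45.5% of all probes did not overlap BSA with Rspo2 and with Wnt3a. With Rspo2 the difference from BSA was 0.68 (SE 0.10, limma adjusted p = 0.00591, 1.61-fold), and with Wnt3a it was 0.67 (adjusted p = 0.00139, 1.59-fold). With slide as a term these differences were 0.53 and 0.46 and did not pass (limma adjusted p = 0.157 and 0.306).

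With both proteins Id2 differed from BSA by 0.06 on this probe (95% interval -0.16 to 0.28, limma adjusted p = 0.656). Relative to Wnt3a alone the combination was lower by -0.60 (adjusted p = 0.00626), a change of -34.2% in signal. The interaction was -1.29 (SE 0.14, adjusted p = 0.000927), the most negative among the 7 member probes. It stayed between -1.36 and -1.20 when any array was left out, and passed in each of these 12 fits.

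The other Id2 probe, A_52_P240542, was also higher with each protein alone. Its signals were 2.67, 2.52 and 2.47 with BSA, 2.97, 3.04 and 3.05 with Rspo2, 2.92, 3.05 and 3.11 with Wnt3a, and 2.51, 2.46 and 2.40 with both. The arrays with a single protein were again above all others, a pattern whose share of all probes was not computed. The arrays with both overlapped those with BSA. The differences from BSA were 0.47 (SE 0.08, limma adjusted p = 0.0112) with Rspo2, 0.47 (adjusted p = 0.00235) with Wnt3a and -0.10 (95% interval -0.27 to 0.08, adjusted p = 0.380) with both. That last difference passed as lower with quantile normalization (-0.26, adjusted p = 0.0123) and with the percentile taken over probes detected on every array (-0.21, adjusted p = 0.0376).

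For A_52_P240542 the combination was lower than Wnt3a by -0.57 (SE 0.08, limma adjusted p = 0.00249), and the interaction was -1.03 (SE 0.11, adjusted p = 0.000961). The interaction passed without any single array, but its size fell just under 2-fold without BSA replicate 3 (-0.99) or without Wnt3a replicate 3 (-0.99). Before scaling, probe A_51_P219074 spanned 4897 to 6276 units over the BSA arrays and 5283 to 5749 over those with both, below the 7389 to 7846 of Rspo2 and the 6634 to 7425 of Wnt3a, so the single-protein groups were above the others on this probe before scaling too. Unscaled, probe A_52_P240542 spanned 5987 to 6572 units over the BSA arrays, 6577 to 8010 with Rspo2, 6408 to 6947 with Wnt3a and 5280 to 5602 with both. On that probe Wnt3a overlapped BSA and the combination lay below BSA before scaling. Both probes report 1 gene and are not replicates of each other. With the normexp background correction, a model of the background in place of the scanner software's subtraction, the Id2 interactions were -1.20 (adjusted p = 0.483) and -0.94 (adjusted p = 0.395) and did not pass, where 0.0132% of all probes passed.

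Id1, a further Id gene, was 0.22 to 0.42 above BSA on both probes with every treatment, and 1 of these 6 differences passed. With A_52_P533809 the signals were 2.66, 2.82 and 2.76 with BSA, 3.11, 2.84 and 2.99 with Rspo2, 2.89, 3.03 and 3.43 with Wnt3a, and 3.32, 3.1 and 3.07 with both. All treated arrays lay above all BSA arrays on this probe, with Wnt3a replicate 3 and replicate 1 of both proteins the highest. Of all probes 43.5%, 45.5% and 54% did not overlap BSA with Rspo2, Wnt3a and both, in either direction. Before scaling, the BSA arrays read 6011 to 8094 units, Rspo2 6280 to 8819, Wnt3a 6316 to 8675 and both 8221 to 9437. In raw units Rspo2 and Wnt3a thus overlapped BSA, and the combination lay above it. The differences were 0.23 (SE 0.14, limma adjusted p = 0.249) with Rspo2, 0.37 (adjusted p = 0.0621) with Wnt3a and 0.42 (adjusted p = 0.0319) with both.

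With A_51_P385786 the Id1 signals were 2.47, 2.69 and 2.56 with BSA, 2.81, 2.65 and 2.91 with Rspo2, 2.75, 2.86 and 3.21 with Wnt3a, and 3.22, 2.75 and 2.90 with both. Here Rspo2 overlapped BSA, and the other treated groups lay above it, where 45.5% and 54% of all probes did not overlap. The differences from BSA, in the same order, were 0.22 (limma adjusted p = 0.308), 0.37 (adjusted p = 0.0788) and 0.39 (adjusted p = 0.0563). Which Id1 differences passed depended on single arrays. The difference with both proteins on A_52_P533809 no longer passed without BSA replicate 1, 2 or 3, or without replicate 1 or 2 of both proteins, with values of 0.34 to 0.46 and adjusted p-values of 0.0534 to 0.116. On A_51_P385786 the same difference passed without Wnt3a replicate 3 (0.39, adjusted p = 0.0310) or without replicate 2 of both proteins (0.49, adjusted p = 0.0405), and on A_52_P533809 the Wnt3a difference passed without Wnt3a replicate 1 (0.48, adjusted p = 0.0272). The Id1 interactions were -0.20 and -0.18, with 95% intervals of -0.66 to 0.26 and -0.61 to 0.24, so an interaction of Id1 was not found at this precision. Whether Id1 and Id2 differed in their interaction was not tested.

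Id3, the third Id gene among the members, passed in no comparison. Its signals were 4.28, 4.65 and 4.51 with BSA, 4.82, 4.81 and 5.11 with Rspo2, 4.58, 4.63 and 4.96 with Wnt3a, and 4.68, 4.42 and 4.18 with both. The Rspo2 arrays were all above the BSA arrays, where 43.5% of all probes did not overlap, and the other 2 treated groups overlapped BSA. The differences from BSA were 0.43 (SE 0.16, limma adjusted p = 0.0783), 0.24 (adjusted p = 0.261) and -0.05 (adjusted p = 0.815). The interaction was -0.73 (SE 0.22, adjusted p = 0.0636, 95% interval -1.22 to -0.24), and it passed without replicate 1 of both proteins (-0.86, adjusted p = 0.0386).

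Treatment and slide were partly aligned, so the members were also compared within slides. On slide 1, Rspo2 replicate 1 differed from the mean of the 3 BSA arrays by 0.56 for Bmp4, by 0.53 and 0.42 for the Id2 probes and by 0.05 for Smad6. For the Id1 probes this was 0.24 and 0.36, and for Id3 it was 0.34. On slide 3, the mean of the 3 arrays with both proteins differed from Wnt3a replicate 3 by -0.57 and -0.65 for the Id2 probes, by -0.42 for Smad6 and by -0.10 for Bmp4. There Id3 differed by -0.53 and the Id1 probes by -0.25 and -0.26. Every detected member probe was thus lower with both proteins than on this 1 Wnt3a array. BSA never shared a slide with Wnt3a or with the combination, and those comparisons were linked only through Rspo2 on slides 1 and 2 and Wnt3a on slides 2 and 3.

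With slide as a term in limma, 0 of the 7 probes passed against BSA with Rspo2, Wnt3a or both, where 0.431%, 0.796% and 2.51% of all probes then passed. By unadjusted p under 0.05 in this fit 4, 4 and 0 passed, and the share of all probes at that p was not computed. The estimates kept their direction for Bmp4 (0.56, 0.55 and 0.45) and for Id2 A_51_P219074 with Rspo2 (0.53) and Wnt3a (0.46), and Smad6 with both was -0.46 (adjusted p = 0.370). The Id2 interaction still passed, at -1.10 (adjusted p = 0.0437) and -1.07 (adjusted p = 0.0255) for the 2 probes, where 0.743% of all probes passed, while that of Smad6 did not (-0.47, adjusted p = 0.287). Of the differences between both proteins and Wnt3a, Id2 A_52_P240542 passed (-0.65, adjusted p = 0.0307), while Id2 A_51_P219074 (-0.57, adjusted p = 0.0986) and Smad6 (-0.42, adjusted p = 0.264) did not.

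**Figure D3:**
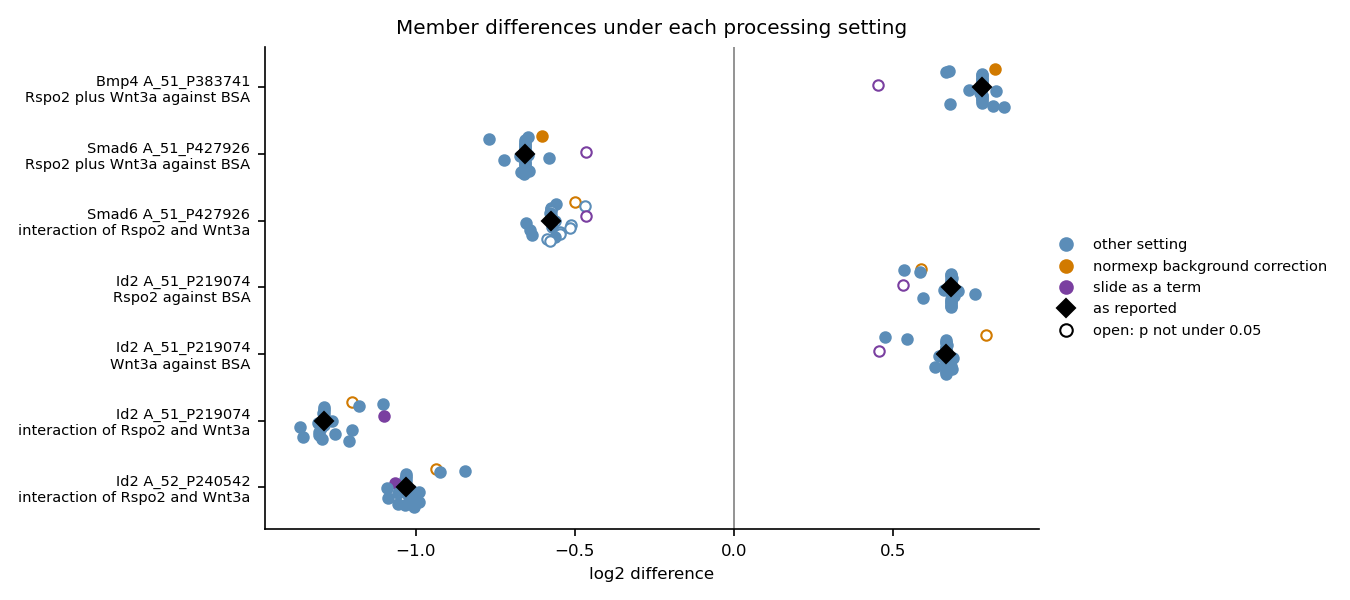
Log2 difference (x axis) of 7 member results (y axis) as reported (diamonds) and under each other processing setting or left-out array (circles), filled where the p-value was under 0.05. Direction was kept in all cases shown. Slide as a term (purple) left 2 of the 7 results filled, both Id2 interactions, and the normexp background correction (orange) left the 2 comparisons of both proteins with BSA filled.

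The rest of the pathway was described with 53 genes in 6 lists, of which 34 were detected. Among these 34 genes, 2 passed as higher and 1 as lower with Rspo2, 3 and 0 with Wnt3a, and 6 and 6 with both proteins, and the interaction passed as positive for 2 and as negative for 2. Over all probes 16.8%, 31.5% and 39.2% passed with Rspo2, Wnt3a and both and 8.9% in the interaction. The counts of 3 and 3 of 34 with each protein alone lay below the shares of all probes. With both proteins 12 of 34 lay near that share, as did the interaction count near its own. The median difference over the 34 genes was -0.03 with Rspo2, -0.02 with Wnt3a and -0.05 with both, beside 0.01, -0.000269 and 0.04 for all probes. Genes named below that were changed less than 2-fold were picked after their values were seen.

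Among 11 further BMP ligands 1 was detected and 0 passed in any comparison. Of 14 secreted antagonists and modulators 9 were detected, and 2 passed with both proteins. Crim1, a membrane-anchored protein that binds BMPs, was 0.62 above BSA with Wnt3a (SE 0.12, limma adjusted p = 0.00419) and 0.92 above BSA with both (adjusted p = 0.000277). Across the 25 other settings, left-out arrays included, these Crim1 differences were 0.38 to 0.67 and 0.66 to 1.00. They passed in 23 and 22 of these settings. Fst, which encodes the activin and BMP antagonist follistatin, was well above background on all 3 arrays with both proteins and on 0 BSA arrays. With both it was at least 1.59-fold higher than with BSA. The bound takes each BSA array at the lowest signal well above background on it, or at its own signal if that is higher. The limma adjusted p of 0.00424 belongs to the difference without this bound. Only the group with both proteins met the detection rule for Fst, so its call is not independent of that rule. Fst was also called against Wnt3a, with a bound of 1.97-fold, and in the interaction. The call of Fst was lost with the normexp background correction (adjusted p = 0.935) and with slide as a term (adjusted p = 0.753).

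Of 10 receptors and co-receptors 8 were detected, and the 2 that passed were lower with both proteins: Rgma, a BMP co-receptor, by -0.72 (SE 0.14, limma adjusted p = 0.00211), and Acvr2b, a type II receptor, by -0.48 (adjusted p = 0.0469). Rgma passed in all 12 fits that left out 1 array, and Acvr2b in 2 of them, with values of -0.67 to -0.34. Over the 25 other settings, which include these fits, Rgma was -0.84 to -0.38 and passed in 22. Acvr2b passed in 7 of the 25. All 7 Smads and Smad ubiquitin ligases were detected. Smurf1, a ubiquitin ligase for BMP Smads, was lower with Rspo2 (-0.49, adjusted p = 0.0438) and with both (-0.47, adjusted p = 0.0253), and its relative Smurf2 was 0.28 higher with both (adjusted p = 0.0391). With 1 array left out these passed in 4, 7 and 4 of 12 fits. Counting all 25 other settings, they passed in 10, 14 and 9, and Smurf1 with both ranged from -0.61 to -0.0078. The receptor-activated Smads Smad1, Smad5 and Smad9, the shared Smad4 and the inhibitory Smad7 did not pass in any comparison.

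Of 8 other BMP-responsive genes 6 were detected, and the interaction was called for 2 of them, both negative, where 1.93% of all probes were called and 0.651% as negative. With the normexp background correction neither passed (adjusted p = 0.260 and 0.232 for Id4 and Dlx5). Id4, the remaining Id gene, gave signals of 2.58, 2.35 and 2.19 on the BSA arrays, 2.61, 2.70 and 2.58 on the Rspo2 arrays, 2.50, 2.31 and 2.60 on the Wnt3a arrays, and 1.57, 1.56 and 1.51 on the arrays with both. The arrays with both proteins lay below all others. Of all probes 54% did not overlap between BSA and both, and 21.4% between Wnt3a and both, in either direction. Id4 differed from BSA by -0.83 with both (SE 0.11, limma adjusted p = 0.000234), and its interaction was -1.17 (adjusted p = 0.00209), or -1.28 with slide as a term (adjusted p = 0.0405). Dlx5, a homeobox gene, gave -0.31, -0.34 and -0.49 on the BSA arrays, -0.01, -0.02 and -0.04 on the Rspo2 arrays, -0.66, -0.49 and -0.34 on the Wnt3a arrays, and -1.0, -1.30 and -1.32 on the arrays with both. The Rspo2 arrays were the highest and the arrays with both the lowest, without overlap with the other groups. The share of all probes with such a pattern was not computed. Its interaction was -1.07 (SE 0.15, adjusted p = 0.00374), and its difference from BSA was 0.36 with Rspo2 (adjusted p = 0.0442) and -0.82 with both (adjusted p = 0.000248). Msx1, another homeobox gene, was 0.24 higher with both (adjusted p = 0.0297), and Atoh8 was lower by -0.29 (adjusted p = 0.0217). With 1 array left out, the Rspo2 difference of Dlx5 passed in 4 of 12 fits, Msx1 in 8 and Atoh8 in 9.

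The 3 E proteins, the partners that Id proteins hold, were all detected. Tcf4, matched by accession to the E protein gene of that symbol, gave 1.61, 1.5 and 1.47 on the BSA arrays, 1.88, 1.88 and 1.91 on the Rspo2 arrays, 1.95, 2.12 and 1.92 on the Wnt3a arrays, and 2.81, 2.67 and 2.49 on the arrays with both. None of the treated groups overlapped BSA, where 43.5%, 45.5% and 54% of all probes did not overlap with Rspo2, Wnt3a and both. Relative to BSA it was 0.37 higher with Rspo2 (SE 0.09, limma adjusted p = 0.0287), 0.47 higher with Wnt3a (adjusted p = 0.0045) and 1.13 higher with the combination (adjusted p = 1.1e-05, 2.19-fold). Against BSA, Tcf4 was the 1 gene of these 34 measured above background in every group and called at 2-fold. Tcf12 was 0.57 higher with both (adjusted p = 0.000522) and its interaction was 0.45 (adjusted p = 0.0431), while Tcf3 passed in no comparison. With 1 array left out, the Rspo2 difference of Tcf4 passed in 7 of 12 fits and the interaction of Tcf12 in 3.

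**Figure D4:**
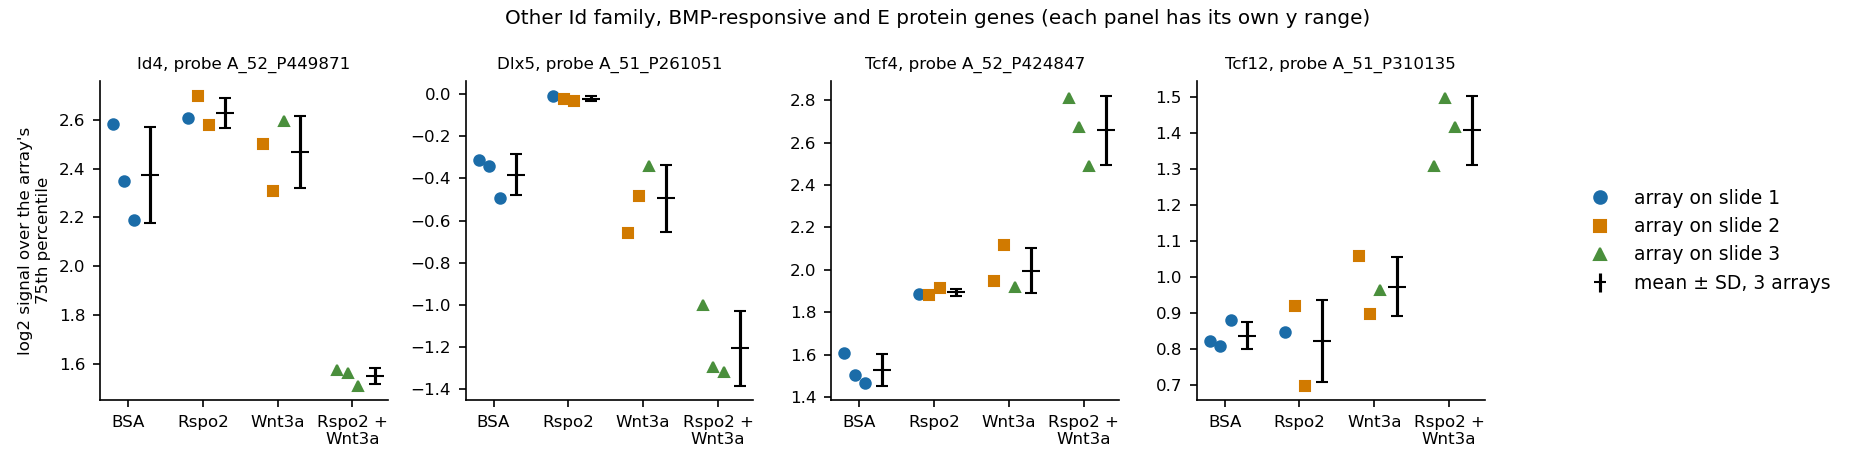
Log2 signal over the 75th percentile of the array (y axis) of Id4, Dlx5, Tcf4 and Tcf12 in the 4 treatment groups (x axis), with 1 symbol per array, shape and color by slide, and mean ± SD of 3 arrays as black bars. With both proteins Id4 and Dlx5 lay below all other arrays, and Tcf4 and Tcf12 lay above all others. The share of all probes with either pattern was not computed.

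Genes that respond directly to Wnt signaling were read on the same arrays as a check of the treatments. Of 7 such genes 5 were detected, and 0, 2 and 5 of them passed as higher with Rspo2, Wnt3a and both. Axin2, a negative regulator of the Wnt pathway, was well above background only with both proteins and was at least 9.39-fold higher there than with BSA. Its limma adjusted p of 1.14e-05 belongs to the difference without this bound. Only the group with both proteins met the detection rule for Axin2. Tcf7, a TCF/LEF transcription factor, was 1.07 above BSA with Wnt3a (adjusted p = 0.000369), and the combination raised it by 2.57 (adjusted p = 2.99e-07). For these genes the combination was furthest from BSA, whereas Id2 was furthest from BSA with each protein alone.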

How the data were processed

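Single-color microarrays of 12 samples were analysed: C57MG cells with BSA, Rspo2, Wnt3a or both, in 3 monolayers each. The authors processed each array with Agilent Feature Extraction 9.5.3.1, and the deposited scanner files give a background-corrected intensity per spot with quality flags. The deposited series matrix holds ratio values, each signal divided by the 75th percentile of its array by the authors.

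Spots flagged as outliers were left out (1327 of 520548 values), spots of a probe were averaged, and log2 intensity less the 75th percentile of the array was fitted with limma 3.58.1 (R 4.3.3, the data.table package at version 1.17.8) over all 12 arrays without covariates. A probe had to be well above background on all arrays of a group, and a probe with several spots on 0.5 or more of them. The fit was tested on simulated data. Genes of the lists were named through RefSeq accessions (22951 probes) or otherwise the file symbol, with the brightest detected probe per gene. All member probes are reported in every comparison, list genes where called; the likeness rule applied to members called against BSA, of which there were 0. Members and lists were chosen with earlier results of these data known. The methods' test was a two-sample t-test of unequal variance, tried as an alternative beside other background corrections, scalings, filters, slide, a replicate block and left-out arrays. The number of arrays limits the precision. Figures were drawn with matplotlib 3.10.9.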

Additional observations from a re-analysis of the deposited data

Results flagged for a closer look

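Member probes stood out where the change with both proteins differed from the sum of the changes with Rspo2 and with Wnt3a, as tested by the interaction term in limma. The interaction was -1.29 (adjusted p = 0.000927) for Id2 probe A_51_P219074 and -1.03 (adjusted p = 0.000961) for Id2 probe A_52_P240542. It was -0.58 (adjusted p = 0.0309) for Smad6 probe A_51_P427926. Of 23 other settings, left-out arrays included, the interaction passed in 22 for each Id2 probe and in 12 for Smad6. With the normexp background correction it passed for none of these probes (limma adjusted p = 0.483, 0.395 and 0.648).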

How the results depend on the processing

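All 15 member differences that passed kept their direction in all 369 recomputed values, of which 310 still passed. Many of these values could not change direction. Settings that alter only the probe filter or the test leave the estimate as it was. So does leaving out an array from a group outside a pairwise comparison. Counts of member probes with an adjusted p under 0.05 changed as follows, for Rspo2, Wnt3a and both against BSA, both against Wnt3a and the interaction, which stood at 3 each. With the normexp background correction the counts were 0 for Rspo2, 0 for Wnt3a, 0 for both against Wnt3a and 0 for the interaction, while 0.0176%, 0.479%, 0.136% and 0.0132% of all probes passed and 2, 4, 3 and 3 members had an unadjusted p under 0.05 in limma. With slide as a term they were 0, 0, 0 and 1 for the first 4, with 4, 4, 0 and 4 by unadjusted p. With the methods' t-test after Benjamini-Hochberg adjustment they were 0, 1, 0 and 0, with 4, 3, 3 and 3 by its unadjusted p under 0.05. By that unadjusted p 24.2%, 30.5%, 39.5% and 10.8% of all probes passed. At the threshold of the methods, which also asks for 2-fold, the counts were 0. The shares of all probes by unadjusted p in limma, with normexp or with slide, were not computed. Without the filter on dim probes the Rspo2 count was 1. When arrays were left out in turn, the 5 counts ranged from 2 to 3, 3 to 4, 2 to 4, 3 to 3 and 2 to 5, with 5 reached without replicate 1 of both proteins. The count called at 2-fold in the interaction, 2, was 1 with quantile normalization, 1 with the percentile over probes detected on all arrays and 0 with normexp, and ranged from 1 to 2 when arrays were left out, with 1 without BSA replicate 3 or Wnt3a replicate 3. By adjusted p alone 3, 3, 3 and 3 were called in the first 4 comparisons in place of 0.

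The replicate block left the interaction at 3 probes that passed and 2 called, and with it Id1 A_52_P533809 with both proteins no longer passed (limma adjusted p = 0.0546). Replicate numbers did not pair the samples: over 18 pairs of same-numbered arrays the correlation of deviations ran from -0.41 to 0.27, with 4 over 0.1. The percentile over probes detected on all arrays put the median of all probes at -0.12 for Wnt3a, and normexp put it at 0.15 for Rspo2, beside -0.000269 and 0.01 as reported.

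The 24 member values that changed sign missed the threshold before and after. With normexp these were Id2 A_52_P240542 with both against BSA (0.029), Id3 with both against BSA (0.057), Id1 A_52_P533809 with both against Wnt3a (-0.060) and the interaction of Id1 A_51_P385786 (0.011), and the interaction of Fst, which had passed, turned to -0.17. With quantile normalization they were Id3 with Wnt3a (-0.052) and Id2 A_51_P219074 with both against BSA (-0.093). With the percentile over detected probes they were Smad6 with Rspo2 (-0.061) and Id2 A_51_P219074 with both against BSA (-0.050). With slide as a term they were Id3 with Wnt3a (-0.018), Id2 A_51_P219074 with both against BSA (-0.11) and, with both against Wnt3a, Bmp4 (-0.098) and Id1 (-0.25 and -0.26). With arrays left out in turn, Smad6 with Rspo2 ranged from -0.025 to 0.12, Id2 A_51_P219074 with both against BSA from -0.0053 to 0.14 and Id3 with both against BSA from -0.18 to 0.071. Both against Wnt3a then ranged from -0.011 to 0.18 for Bmp4 and from -0.11 to 0.16 and -0.064 to 0.21 for the Id1 probes.

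Signal over background limits Bmp2, Bmp7, Grem1, Nog and Bambi, which were at background on all arrays. Slide and treatment were partly aligned, and the part of slide in the differences from BSA was not tested beyond the values given. The cause of each change of call was not tested.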
